A study of Mus musculus with 14 samples.

Results

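Macroautophagy is the delivery of cytosol, proteins and organelles to the lysosome inside a double-membraned vesicle, and 40 genes of its core machinery were followed here in mouse liver. They were taken as a list of gene symbols: 5 genes of the ULK kinase complex, 6 of the lipid kinase complex built on Becn1 and Pik3c3, 6 that supply membrane or read the lipid it makes, 7 of the conjugation system, 4 ATG4 proteases, 5 ATG8 proteins and 7 cargo receptors. All 40 were among the 24411 genes of the count files, and 39 were among the 9644 that passed a filter on low counts. The gene that did not pass was Atg10, with 3 to 15 reads per sample.

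The livers came from male littermates between 5 and 7 months old, all carrying floxed alleles of Rbbp5, a subunit of the complexes that methylate lysine 4 of histone H3. WT mice were Rbbp5 flox/flox without Alb-Cre. LKO mice were Rbbp5 flox/flox with Alb-Cre (+/-), in which the albumin promoter drives Cre in hepatocytes, so the other liver cells keep the gene. Each genotype received tunicamycin, an inhibitor of N-glycosylation that causes stress in the endoplasmic reticulum (ER), at 0.05 mg/kg into the peritoneum in 500 µl of 3% DMSO in PBS, or that vehicle alone. Mice were injected from 9 to 10 am and their livers removed 8 hours afterwards.

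RNA-seq gave 14 libraries, 3 for each WT group and 4 for each LKO group. Libraries 3 and 4 of the vehicle-treated LKO mice were nearly identical (chi-square per degree of freedom 1.12, against 3.05 to 25.5 in the 17 other pairs within groups) and were summed to 1 sample, which left 13. The labels number replicates but do not say that each is a separate mouse, so p-values measure the spread between these samples. Libraries held 6507018 to 13519421 reads on genes, of which the ribosomal precursor gene Rn45s took 72.5% to 75.5%, leaving 1704479 to 3551398 reads for the rest. Levels are given as CPM, counts scaled to a fixed total of reads on the genes tested, after TMM scaling (trimmed mean of M values). The 39 genes tested had a median of 79 reads in a sample, and 6 of them, Atg101, Atg4a, Atg4b, Atg4d, Map1lc3a and Tecpr1, had medians under 30.

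Rbbp5 was lower in LKO samples by 0.89 ± 0.18 (SE) on the log2 scale, or 0.541 of the WT level, averaged over both treatments (adjusted p = 0.0181, edgeR quasi-likelihood test). Under 23 alternatives of the fit that log2 difference ran from -1.01 to -0.22. Its adjusted p was under 0.05 in 18 of them and at most 0.124 (edgeR, DESeq2 or limma). The library labelled LKO vehicle 1, at 4.15 CPM, lay within the range of the WT vehicle samples (4.07 to 6.41 CPM), while the other 6 LKO samples lay between 1.90 and 3.46 CPM. Which exons are floxed is not given in the sources used here, and the reads are counted over the whole gene. The tunicamycin response was uneven: Ddit3, the gene of the ER stress factor CHOP, was at 26.3 CPM in the first WT sample given tunicamycin, at 20.4 CPM in the third and at only 1.30 CPM in the second. In the 4 LKO tunicamycin samples Ddit3 was between 0.39 and 2.04 CPM. Hspa5, another ER stress gene, was at 854, 313 and 786 CPM in WT tunicamycin and 197 to 253 CPM in WT vehicle. By Hspa5, WT tunicamycin 2 therefore stood above vehicle, though less than the others. In LKO, Hspa5 was at 117 to 173 CPM in vehicle and 142 to 229 CPM in tunicamycin. Of 11 ER stress genes tested, 6 were higher with tunicamycin in WT at an adjusted p under 0.05 (edgeR). That threshold was passed by 0.363% of all genes in WT. In LKO none of the 11 passed it, against 0.0311% of all genes. Over all genes WT tunicamycin 3 stood apart in its group. Its chi-square per degree of freedom was 25.1 against sample 1 and 25.5 against sample 2, and 6.13 between those. LKO vehicle 2, the library with the most reads, also stood apart in its group, at 12.6 to 16.4. The pairs of LKO vehicle 1 with libraries 3 and 4 were at 6.57 and 6.88. For Atg13, Atg14 and Atg3, values without the library labelled LKO vehicle 1, WT tunicamycin 2 or WT tunicamycin 3 are given below.

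In liver, autophagy recycles amino acids and clears damaged mitochondria, lipid droplets and stretches of the ER. The ULK complex starts the process, the Pik3c3 lipid kinase marks the growing membrane with phosphatidylinositol 3-phosphate (PI3P), ATG9 and ATG2 proteins supply lipid, and a ubiquitin-like cascade of ATG7, ATG3, ATG10 and the ATG12-ATG5-ATG16L1 complex attaches ATG8 proteins (the LC3 and GABARAP families) to it. ATG4 proteases prepare ATG8 proteins for attachment and release them again, and receptors such as p62 (Sqstm1) tie cargo to them. Much of this control acts on proteins, which RNA levels do not measure.

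Most of the 39 genes had group means within 1.5-fold of each other. The group with the highest mean CPM exceeded that with the lowest by less than 1.5-fold in 32 of 39 genes (82.1%, against 71.0% of all 9644 genes tested) and by less than 2-fold in 38. The gene past 2-fold was Tecpr1, the gene with the lowest FPKM of the list. For tunicamycin against vehicle, averaged over genotypes, the median size of the log2 fold change was 0.10 (0.16 over all genes tested), and the 95% interval lay within 1 log2 unit of 0 in 39 of 39 (90.9% of all genes). For LKO against WT, averaged over treatments, the median size was 0.14 (0.15 over all genes), and the interval lay within 1 log2 unit in 37 of 39 (90.5% of all genes), the exceptions being Tecpr1 and Atg4a. Changes of 2-fold in either average were therefore outside the intervals of nearly all of these genes.

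Against this background 3 genes passed the test in an average. Atg13, an adaptor that joins the ULK kinases to their scaffold, and Atg14, the subunit that directs the Pik3c3 kinase to autophagy, were lower in LKO liver. Atg3, the E2-like enzyme that transfers ATG8 proteins to lipid, was lower after tunicamycin. A gene was called when its p, adjusted by the Benjamini-Hochberg method across the 9644 genes, was under 0.05. For LKO against WT 2 of the 39 genes were called (5.13%), against 2.21% of all genes, and for tunicamycin against vehicle 1 was (2.56%), against 4.32% of all genes. Both shares are near those of all genes, and none of the 39 was called higher. Under 23 alternatives of the fit, the Atg3 call held in 23, the Atg13 call in 19 and the Atg14 call in only 9.

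**Figure D1:**
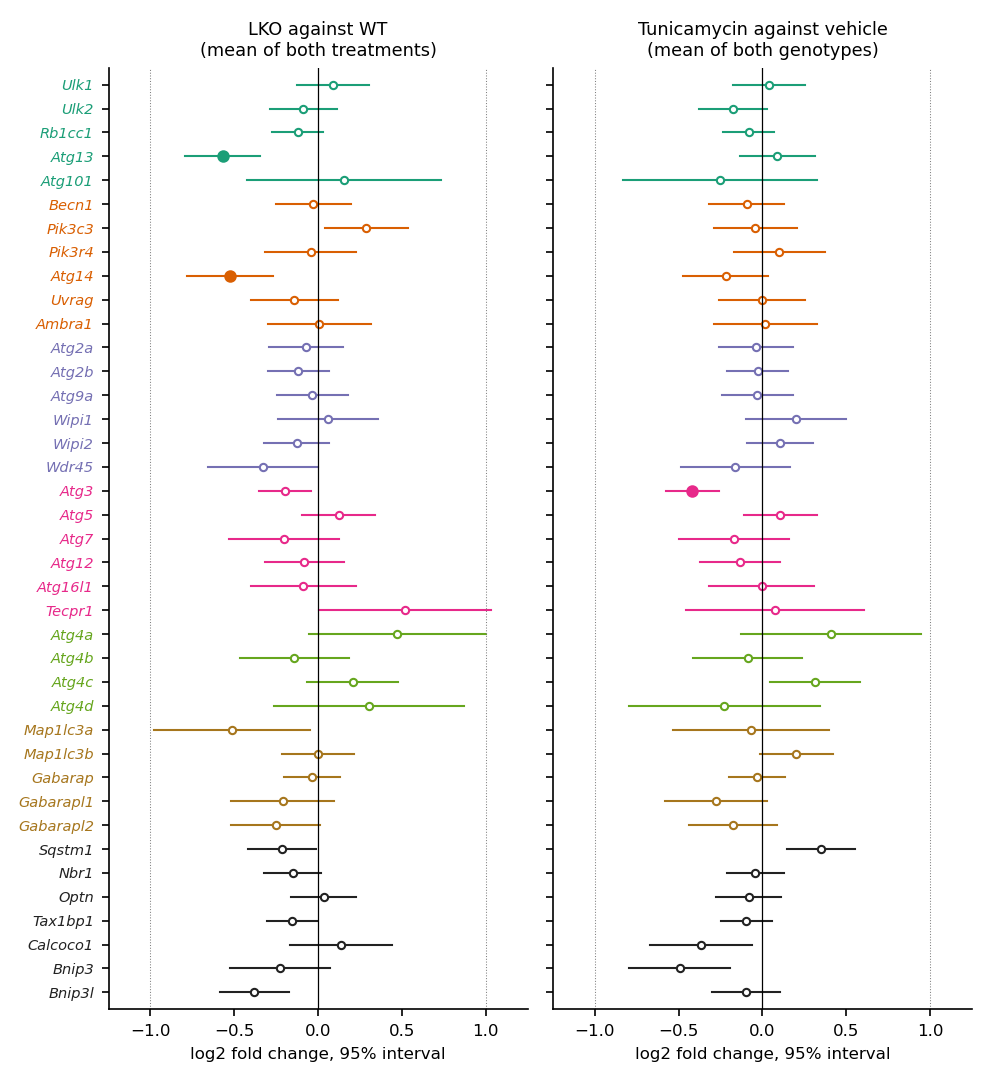
Log2 fold change (x axis) of the 39 genes tested (y axis, coloured and ordered by role from the ULK complex at the top to receptors at the bottom) for LKO against WT (left) and tunicamycin against vehicle (right). Points are estimates over 13 samples, bars their 95% intervals and filled points the calls (Atg13, Atg14 and Atg3), and dotted lines mark 2-fold; most intervals cross 0.

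The promoters of these 3 genes are shown because their genes carry the calls and because motifs of stress- and nutrient-regulated transcription factors could be looked for in them. Each line is the 250 bases before the annotated start, 5′ to 3′ on the gene's strand, from RefSeq on GRCm38.p6, the assembly also called mm10. Capitals mark a match to CACGTG (the E-box core bound by TFEB and related factors) or to TGACNNNGC (the shape of the antioxidant response element). Atg13 lies at chr2:91710593-91710842 on the minus strand, Atg14 at chr14:47568435-47568684 on the minus strand and Atg3 at chr16:45158579-45158828 on the plus strand.
Atg13: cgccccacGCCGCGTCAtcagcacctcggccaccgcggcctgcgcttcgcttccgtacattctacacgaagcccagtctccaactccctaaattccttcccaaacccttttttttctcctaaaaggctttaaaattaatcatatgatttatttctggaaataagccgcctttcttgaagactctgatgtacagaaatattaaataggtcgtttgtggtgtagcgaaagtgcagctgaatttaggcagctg
Atg14: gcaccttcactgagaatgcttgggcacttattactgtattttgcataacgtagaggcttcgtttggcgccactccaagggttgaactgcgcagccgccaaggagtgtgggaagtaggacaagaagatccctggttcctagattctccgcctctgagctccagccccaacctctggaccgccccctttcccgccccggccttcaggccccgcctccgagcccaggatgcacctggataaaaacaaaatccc
Atg3: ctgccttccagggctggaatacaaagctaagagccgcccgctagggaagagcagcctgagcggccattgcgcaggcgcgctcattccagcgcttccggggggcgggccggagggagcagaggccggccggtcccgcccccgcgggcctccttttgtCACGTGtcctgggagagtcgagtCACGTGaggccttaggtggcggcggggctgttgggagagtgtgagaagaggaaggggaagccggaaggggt

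The Atg3 promoter held CACGTG at 94 and 71 bases before the start, and the Atg13 promoter held TGACNNNGC on the opposite strand with its first base 242 bases before the start. The Atg14 window held no match. Promoters were found for 33 of the 40 genes (not for Rb1cc1, Becn1, Pik3c3, Atg12, Atg16l1, Map1lc3a and Bnip3l). CACGTG, searched on both strands, lay in those of 4 genes (Atg3, Atg5, Atg7 and Bnip3) and in 6.02% of all 32851 promoters of that table. TGACNNNGC lay in those of Atg13, Tax1bp1 and Ulk2 and in 10.2% of all promoters. TGATGNAA, the core of the composite site bound by ATF4 and CHOP, lay in none of the 33 and in 3.45% of all. These matches describe letters in a window and say nothing of binding.

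Atg13 was at 14.4, 12.7 and 12.5 CPM in WT vehicle and 18.2, 12.6 and 17.4 CPM in WT tunicamycin. It was at 11.3, 9.34 and 10.2 CPM in LKO vehicle and 11.2, 8.33, 8.97 and 9.45 CPM in LKO tunicamycin. All 7 LKO samples were below all 6 WT samples, and the gap was wider under tunicamycin, where 2 of 3 WT samples stood above the vehicle range. The averaged difference was -0.57 ± 0.10 (SE) on the log2 scale, 0.674 of the WT level (95% interval -0.79 to -0.35, adjusted p = 0.0111, edgeR). Under tunicamycin alone, Atg13 was at 0.587 of the WT level (log2 -0.77 ± 0.15, adjusted p = 0.0240, edgeR), the only 1 of 39 genes called in a comparison that called 0.861% of all genes. In vehicle the difference was -0.37 ± 0.15 (adjusted p = 0.543, edgeR; 0.0415% of all genes called, none of the 39). The interaction, the difference between these differences, was -0.40 (95% interval -0.84 to 0.05, unadjusted p = 0.0761), so a larger gap under tunicamycin was not established.

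The averaged Atg13 call held in each of the 13 fits that left out 1 sample. The difference was -0.60 without the library labelled LKO vehicle 1 and -0.64 without WT tunicamycin 2. Without WT tunicamycin 3 it was -0.54 (adjusted p = 0.0237, edgeR). On the authors' FPKM, where WT and LKO samples overlapped, the averaged difference was -0.23 with a pseudocount of 1 (adjusted p = 0.124, limma) and -0.40 with 0.1 (adjusted p = 0.122, limma). Atg13 was at 0.774 to 1.71 FPKM, so a pseudocount of 1 shrinks the log2 difference. These sizes are therefore not on the same footing as that on CPM. The call under tunicamycin was lost without WT tunicamycin 1 or 3 and without LKO tunicamycin 2, 3 or 4 (adjusted p 0.0574 to 0.143, edgeR). It held without WT tunicamycin 2 (-0.91, adjusted p = 0.00339) and without the library labelled LKO vehicle 1 (-0.76, adjusted p = 0.0302, both edgeR).

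The other 4 members of the ULK complex passed no test. Ulk1, its best known kinase, was at 21.2, 20.4 and 21.3 CPM in WT vehicle and 17.3, 27.6 and 19.4 CPM in WT tunicamycin. It was at 21.8, 20.8 and 23.6 CPM in LKO vehicle and 25.2, 24.2, 20.4 and 21.9 CPM in LKO tunicamycin. All 4 groups overlapped, and the 95% intervals were -0.13 to 0.30 for LKO against WT and -0.17 to 0.25 for tunicamycin against vehicle. Ulk2, the second kinase, was lower in all 3 WT tunicamycin samples than in all 3 WT vehicle samples (log2 -0.34, adjusted p = 0.273, edgeR) and near 0 in LKO (-0.01). Rb1cc1, the scaffold FIP200, and Atg101, which stabilises ATG13, differed by -0.12 and 0.15 between LKO and WT, the latter on few reads.

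Atg14 was at 6.47, 8.59 and 8.16 CPM in WT vehicle and 7.16, 6.0 and 6.17 CPM in WT tunicamycin. It was at 4.03, 5.84 and 5.52 CPM in LKO vehicle and 4.80, 4.81, 4.08 and 4.78 CPM in LKO tunicamycin. Again all 7 LKO samples were below all 6 WT samples. The averaged difference was -0.53 ± 0.12 (SE), 0.695 of the WT level (95% interval -0.78 to -0.27, adjusted p = 0.0331, edgeR). It was -0.56 in vehicle and -0.49 under tunicamycin, neither called alone, with an interaction of 0.07 (95% interval -0.44 to 0.58). These values rest on 34 to 93 reads per sample. Leaving out 1 sample ended the call in 7 of 13 cases: WT vehicle 2 or 3, WT tunicamycin 1, the library labelled LKO vehicle 1, or LKO tunicamycin 2, 3 or 4. There the difference was between -0.53 and -0.47 and the adjusted p between 0.0549 and 0.0910 (edgeR). Without the library labelled LKO vehicle 1 the difference was -0.47 (adjusted p = 0.0598). Without WT tunicamycin 2 the call held, at -0.55 (adjusted p = 0.0281, both edgeR). It also held without WT tunicamycin 3, at -0.54 (adjusted p = 0.0441, edgeR). On FPKM the difference was -0.14 with a pseudocount of 1 and -0.32 with 0.1, neither called, and WT and LKO samples overlapped. Atg14 was at 0.461 to 0.777 FPKM, so a pseudocount of 1 shrinks the log2 difference. These sizes are therefore not on the same footing as that on CPM.

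The partners of Atg14 passed no test. Becn1, the scaffold of the complex, was at 13.4, 10.4 and 9.18 CPM in WT vehicle and 9.08, 10.4 and 11.4 CPM in WT tunicamycin. It was at 11.3, 10.1 and 10.9 CPM in LKO vehicle and 10.7, 10.9, 8.56 and 10.5 CPM in LKO tunicamycin. The groups overlapped, and the interval for LKO against WT was -0.25 to 0.20. Pik3c3, the catalytic subunit, was 0.29 higher in LKO (adjusted p = 0.197, edgeR) and was the only 1 of 9 genes with an unadjusted p under 0.05 in that average that was higher. Pik3r4, Uvrag and Ambra1, the regulatory kinase-like subunit, the endosomal alternative to ATG14 and a Beclin 1 regulator, lay between -0.14 and 0.01.

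Among the genes that supply membrane or bind PI3P, none passed the test in any of the 7 contrasts. Atg9a, the transmembrane lipid scramblase, and the lipid transfer genes Atg2a and Atg2b differed by -0.03, -0.07 and -0.12 between LKO and WT. The PI3P readers Wipi1 and Wipi2 differed by 0.06 and -0.13. The reader Wdr45, which is X-linked, was at 5.03, 4.48 and 5.25 CPM in WT vehicle against 3.08, 3.21 and 3.68 CPM in LKO vehicle, without overlap. Under tunicamycin the groups did overlap, at 3.03, 2.92 and 5.40 CPM in WT and 3.33, 2.86, 3.77 and 3.91 CPM in LKO. Its vehicle difference was -0.55 ± 0.21 (SE; adjusted p = 0.517, edgeR), and -0.51 without the library labelled LKO vehicle 1 (adjusted p = 0.710, edgeR).

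**Figure D2:**
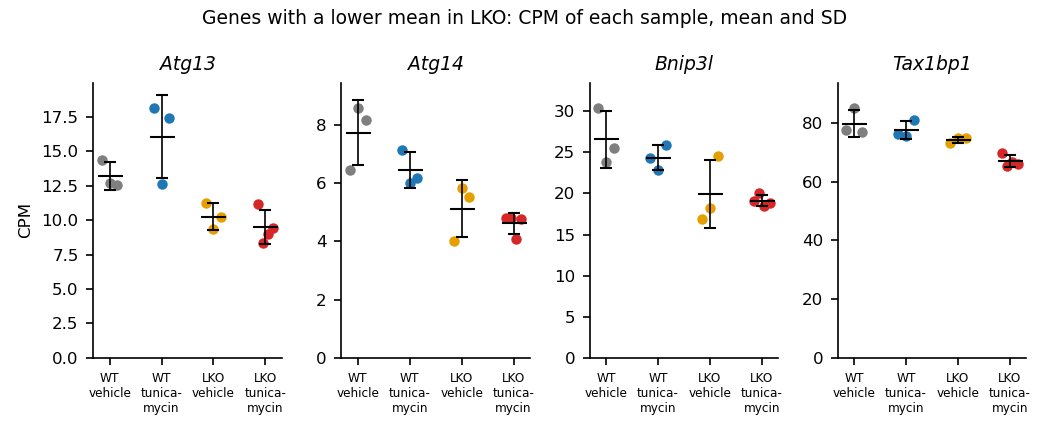
CPM (y axis, from 0) of Atg13, Atg14, Bnip3l and Tax1bp1 in the 4 groups, with a point for each of the 13 samples and the mean and SD in black. All 7 LKO samples lie below all 6 WT samples for Atg13, Atg14 and Tax1bp1, while LKO vehicle reaches 24.6 CPM for Bnip3l.

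Samples of the genotypes did not overlap for 3 of 39 genes across both treatments, Atg13, Atg14 and Tax1bp1, against 1.09% of all genes tested. Tax1bp1, a ubiquitin-binding receptor, was named after its values were seen. It was at 77.5, 85.1 and 76.8 CPM in WT vehicle and 76.1, 75.6 and 81.0 CPM in WT tunicamycin. It was at 73.1, 74.8 and 75.0 CPM in LKO vehicle and 69.8, 65.3, 66.8 and 65.9 CPM in LKO tunicamycin. Its groups were tight, but the difference was small, -0.16 ± 0.07 (SE; adjusted p = 0.256, edgeR).

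Bnip3l, a mitochondrial outer membrane receptor for mitophagy also called NIX, was at 30.4, 23.8 and 25.5 CPM in WT vehicle and 24.4, 22.9 and 25.9 CPM in WT tunicamycin. It was at 16.9, 18.2 and 24.6 CPM in LKO vehicle and 19.1, 20.04, 18.4 and 18.9 CPM in LKO tunicamycin. All LKO samples but the summed LKO vehicle sample were below the WT samples. The averaged difference was -0.38 ± 0.10 (SE), with an adjusted p of 0.0507 (edgeR) that missed the threshold. Without that summed sample it was -0.48 (adjusted p = 0.00722), and without the library labelled LKO vehicle 1 it was -0.33 (adjusted p = 0.109, both edgeR). Without WT tunicamycin 2 it was -0.40 and passed the threshold (adjusted p = 0.0426, edgeR). At an unadjusted p under 0.05, 9 of the 39 genes differed in this average (18% of all genes), 8 lower (8.99% of all genes) and 1 higher (8.98%). The same count was 5 in vehicle (8.15% of all genes) and 7 under tunicamycin (15.8%). Samples of the 2 genotypes did not overlap for 6 genes in vehicle (15.1% of all genes) and 7 under tunicamycin (12.9%).

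How far the list leaned lower depended on scaling, and in the comparison of LKO with WT under tunicamycin its direction did too. With TMM, 26 of 39 genes were lower in LKO, with a median log2 fold change of -0.09, and with scaling to total counts 21 were, with a median of -0.01. For tunicamycin, 27 were lower with TMM (median -0.04) and 34 with total counts (median -0.16). For LKO against WT under tunicamycin, 28 were lower with TMM (median -0.12), whereas with total counts 15 were lower and 24 higher (median 0.03). For the interaction, 20 were lower with TMM and 10 with total counts, and the median went from -0.00497 to 0.15. Total-count scaling moved the median of all genes by 0.08 for LKO against WT and by -0.12 for tunicamycin, and it turned the split of called genes from 130 higher and 83 lower to 227 and 34 for LKO. For tunicamycin the split went from 210 higher and 207 lower to 153 and 657. Under that scaling Atg13 kept its averaged LKO call (-0.50, adjusted p = 0.0433), Atg14 did not (-0.45, adjusted p = 0.0545) and Atg3 kept its tunicamycin call (-0.54, adjusted p = 0.00690, all edgeR).

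Atg3 was at 27.3, 28.4 and 28.6 CPM in WT vehicle and 20.8, 19.1 and 20.4 CPM in WT tunicamycin. It was at 24.6, 22.3 and 23.4 CPM in LKO vehicle and 17.7, 20.7, 17.1 and 17.9 CPM in LKO tunicamycin. All 7 tunicamycin samples were below all 6 vehicle samples, which held for 1 of the 39 genes. Samples of the 2 treatments did not overlap, in either direction, for 0.83% of all genes. The averaged difference was -0.42 ± 0.07 (SE), 0.748 of the vehicle level (95% interval -0.57 to -0.26, adjusted p = 0.0123, edgeR). WT tunicamycin 2, in which Ddit3 was at 1.30 CPM, had the lowest Atg3 of the WT samples. The call held under each of the 23 alternatives run, FPKM included, with adjusted p from 0.000774 to 0.0457. Without WT tunicamycin 2 the difference was -0.40 (adjusted p = 0.0268) and without the library labelled LKO vehicle 1 it was -0.41 (adjusted p = 0.0318, both edgeR). Without WT tunicamycin 3 it was -0.42 (adjusted p = 0.00256, edgeR). Within WT the difference was -0.48 (adjusted p = 0.0611) and within LKO -0.35 (adjusted p = 0.215), with an interaction of 0.13 (95% interval -0.19 to 0.44, edgeR). These comparisons called 0.363% (WT) and 0.0311% (LKO) of all genes, and none of the 39. At an unadjusted p under 0.05, tunicamycin differed from vehicle for 6 of the 39 genes in WT (14.8% of all genes), 2 in LKO (12.2%) and 5 in the average (20.2%). Samples did not overlap between treatments for 9 genes in WT (17.3% of all genes) and 3 in LKO (11.6%).

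The other conjugation genes passed no test. Atg7, the E1-like enzyme, differed by -0.17 between tunicamycin and vehicle, with a 95% interval of -0.50 to 0.16 that holds the Atg3 value. Atg5, Atg12 and Atg16l1, which form the E3-like complex, differed by 0.11, -0.13 and -0.00. Tecpr1, whose product binds the ATG12-ATG5 conjugate, was at 1.08, 1.03 and 1.17 CPM in WT vehicle and 0.83, 0.97 and 0.62 CPM in WT tunicamycin. It was at 1.42, 1.17 and 0.83 CPM in LKO vehicle and 2.27, 1.56, 1.22 and 1.63 CPM in LKO tunicamycin. Every LKO tunicamycin sample was above every WT tunicamycin sample, with a log2 difference of 1.02 ± 0.35 (SE; adjusted p = 0.173, edgeR), on 4 to 17 reads per sample. The 4 entries named as ATG4 proteases ran from -0.23 to 0.41 for tunicamycin, the highest being Atg4a on few reads. The Atg4a entry lies at chr3:103643953-103646068, a much shorter span than that of Atg4b (chr1:93755033-93789529). Whether its reads stand for the protease gene was not tested. Atg4c, at 0.31, had an unadjusted p of 0.0251.

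**Figure D3:**
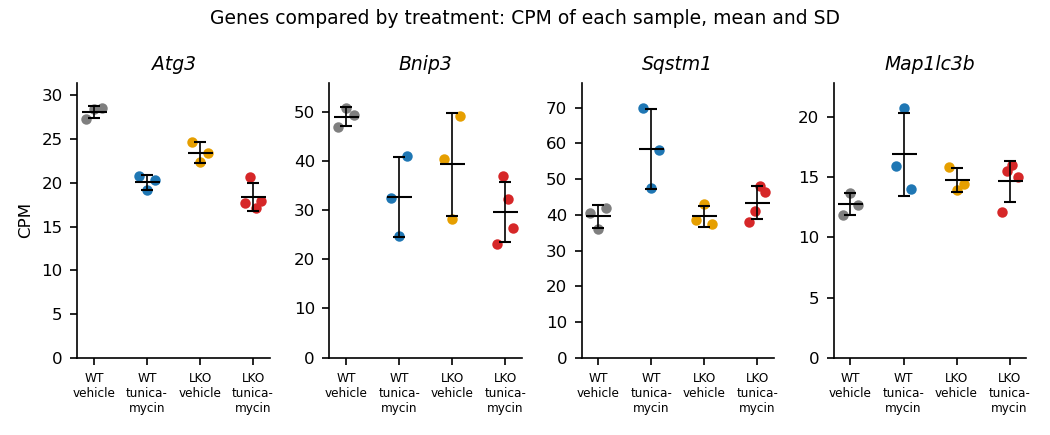
CPM (y axis, from 0) of Atg3, Bnip3, Sqstm1 and Map1lc3b in the 4 groups, with a point for each of the 13 samples and the mean and SD in black. For Atg3 the tunicamycin samples of both genotypes (17.1 to 20.8 CPM) lie below the vehicle samples (22.3 to 28.6 CPM), and for Sqstm1 the 3 WT tunicamycin samples (47.5 to 69.9 CPM) lie above the WT vehicle samples.

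Sqstm1, which encodes the receptor p62 and is itself degraded by autophagy, was at 40.6, 36.0 and 42.0 CPM in WT vehicle and 69.9, 47.5 and 58.0 CPM in WT tunicamycin. It was at 38.5, 43.0 and 37.3 CPM in LKO vehicle and 38.1, 41.1, 48.0 and 46.3 CPM in LKO tunicamycin. The WT groups did not overlap, whereas the LKO groups did. The difference in WT was 0.57 ± 0.14 (SE), 1.48-fold (95% interval 0.27 to 0.87), with an adjusted p of 0.0846 (edgeR) that missed the threshold. In LKO it was 0.13 ± 0.13 (95% interval -0.15 to 0.41). The interaction was -0.43 (95% interval -0.84 to -0.03, unadjusted p = 0.0383), 1 of 39 genes at that level against 4.91% of all genes, with an adjusted p of 0.948 (edgeR). No gene of the 9644 passed the adjusted threshold for the interaction (0%), and DESeq2 also called 0.

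WT tunicamycin 2, the sample with little Ddit3, also had the lowest Sqstm1 of the WT tunicamycin samples. Without it the WT difference was 0.70 (adjusted p = 0.0407) and the LKO against WT difference under tunicamycin went from -0.43 (adjusted p = 0.126) to -0.56 (adjusted p = 0.0403, all edgeR). Without WT tunicamycin 1, which had the highest Sqstm1, they were 0.42 (adjusted p = 0.352) and -0.29 (adjusted p = 0.374), and without WT tunicamycin 3 they were 0.57 (adjusted p = 0.0373) and -0.44 (adjusted p = 0.189, all edgeR). The interaction was -0.56 without WT tunicamycin 2 (adjusted p = 0.664) and -0.29 without WT tunicamycin 1 (adjusted p = 0.991, both edgeR). Atg13 was also lowest in that sample within its group, at 12.6 CPM. Averaged over genotypes the Sqstm1 difference was 0.35 ± 0.10 (SE), with an adjusted p of 0.0505 (edgeR).

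Bnip3, the second mitophagy receptor, had the highest FPKM of the list in WT vehicle. It was at 46.8, 50.7 and 49.4 CPM in WT vehicle and 32.5, 24.6 and 40.9 CPM in WT tunicamycin. It was at 40.4, 28.3 and 49.2 CPM in LKO vehicle and 23.2, 36.8, 32.3 and 26.4 CPM in LKO tunicamycin. The WT groups were separate and the LKO groups overlapped, with a wide spread in LKO vehicle. The averaged difference was -0.49 ± 0.14 (SE), with an adjusted p of 0.0557 (edgeR) that missed the threshold. Without WT tunicamycin 2, which had the lowest Bnip3 of the WT samples, the average was -0.41 (adjusted p = 0.142) and the difference in WT went from -0.58 (adjusted p = 0.199) to -0.42 (adjusted p = 0.477, all edgeR). Without WT tunicamycin 3, which had the highest level of its group, these were -0.59 (adjusted p = 0.0117) and -0.78 (adjusted p = 0.0455, both edgeR). Calcoco1, an ER-phagy receptor, was lower in each WT tunicamycin sample than in each WT vehicle sample (log2 -0.52, adjusted p = 0.279). Nbr1 and Optn, ubiquitin-binding receptors, differed by -0.04 and -0.08 in the average over genotypes.

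None of the 5 ATG8 genes passed the test in any contrast. Map1lc3b, the LC3 gene most used as a marker of autophagosomes, was at 11.9, 13.7 and 12.7 CPM in WT vehicle and 16.0, 20.8 and 14.05 CPM in WT tunicamycin. It was at 15.9, 13.9 and 14.4 CPM in LKO vehicle and 12.1, 15.5, 16.0 and 14.98 CPM in LKO tunicamycin. All WT tunicamycin samples were above all WT vehicle samples (log2 0.41 ± 0.15 SE, adjusted p = 0.218, edgeR), the highest being sample 2. Without that sample the difference was 0.24 (adjusted p = 0.571, edgeR). In LKO it was -0.00 (95% interval -0.29 to 0.29), and the interaction was -0.41 (95% interval -0.84 to 0.02, unadjusted p = 0.0628). Without WT tunicamycin 2 the interaction was -0.23 (adjusted p = 0.942, edgeR). The LKO vehicle samples also lay above all WT vehicle samples (13.9 to 15.9 against 11.9 to 13.7 CPM). The genotypes did not overlap in vehicle, in either direction, for 15.1% of all genes.

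Gabarap was the steadiest of the 15 genes given in full, at 24.7, 24.1 and 27.8 CPM in WT vehicle, 25.5, 25.5 and 25.3 CPM in WT tunicamycin, 23.7, 26.5 and 25.7 CPM in LKO vehicle and 21.5, 23.2, 26.7 and 25.7 CPM in LKO tunicamycin. Its group means spanned 1.05-fold. Gabarapl1 was at 51.6, 44.2 and 53.2 CPM in WT vehicle and 27.8, 37.1 and 54.2 CPM in WT tunicamycin. It was at 37.4, 37.2 and 49.5 CPM in LKO vehicle and 29.98, 29.4, 46.2 and 35.7 CPM in LKO tunicamycin. The spread within its groups was as large as any difference between them (tunicamycin -0.28, 95% interval -0.58 to 0.03). Leaving out 1 sample moved that value between -0.42 and -0.18, and without WT tunicamycin 3 it passed the threshold (adjusted p = 0.0402, edgeR).

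Gabarapl2 was at 7.90, 6.41 and 5.54 CPM in WT vehicle, 4.82, 6.81 and 6.17 CPM in WT tunicamycin, 4.86, 5.62 and 6.11 CPM in LKO vehicle and 4.40, 5.73, 4.99 and 4.67 CPM in LKO tunicamycin. Map1lc3a was at 3.47, 2.18 and 3.79 CPM in WT vehicle, 3.58, 2.59 and 3.55 CPM in WT tunicamycin, 2.01, 1.83 and 3.14 CPM in LKO vehicle and 1.20, 1.95, 1.94 and 3.15 CPM in LKO tunicamycin. Both had overlapping groups. For LKO against WT, Gabarapl2 differed by -0.25 (95% interval -0.52 to 0.01) and Map1lc3a by -0.51 (95% interval -0.98 to -0.05, adjusted p = 0.226, edgeR).

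Compared per transcript length, on the authors' FPKM, the summed levels of the receptors and of the ATG8 genes were above those of the other roles. In WT vehicle the 7 receptors summed to 47.5 ± 1.2 FPKM (SD, n = 3) and the 5 ATG8 genes to 35.2 ± 2.4, whereas the ULK complex summed to 8.10, the conjugation system to 8.68, the Pik3c3 complex to 5.75, the membrane genes to 5.21 and the 4 ATG4 proteases to 1.88. Single genes did not all follow these sums: Map1lc3a (1.16) and Calcoco1 (1.22) were below the kinase gene Ulk1 (1.61). The highest single genes were Bnip3 (15.5), Gabarapl1 (13.2), Gabarap (10.4), Sqstm1 (8.74) and Tax1bp1 (8.37). Sqstm1 and Tax1bp1 did not differ beyond their SDs (0.67 and 0.22). The lowest were Atg10 (0.218), Atg4d (0.182) and Tecpr1 (0.0609). Summed ATG8 FPKM overlapped between all groups except WT vehicle (32.5 to 37.2) and WT tunicamycin (28.8 to 31.8). FPKM was low relative to CPM across genes in WT tunicamycin 2 and 3 (median relative ratio 0.858 and 0.886). In WT vehicle that ratio was 0.973 to 1. It was 0.991 in WT tunicamycin 1, the sample with the lowest summed ATG8 FPKM of its group. The part of FPKM scaling in this separation was not tested, and no ATG8 gene was called on CPM.

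**Figure D4:**
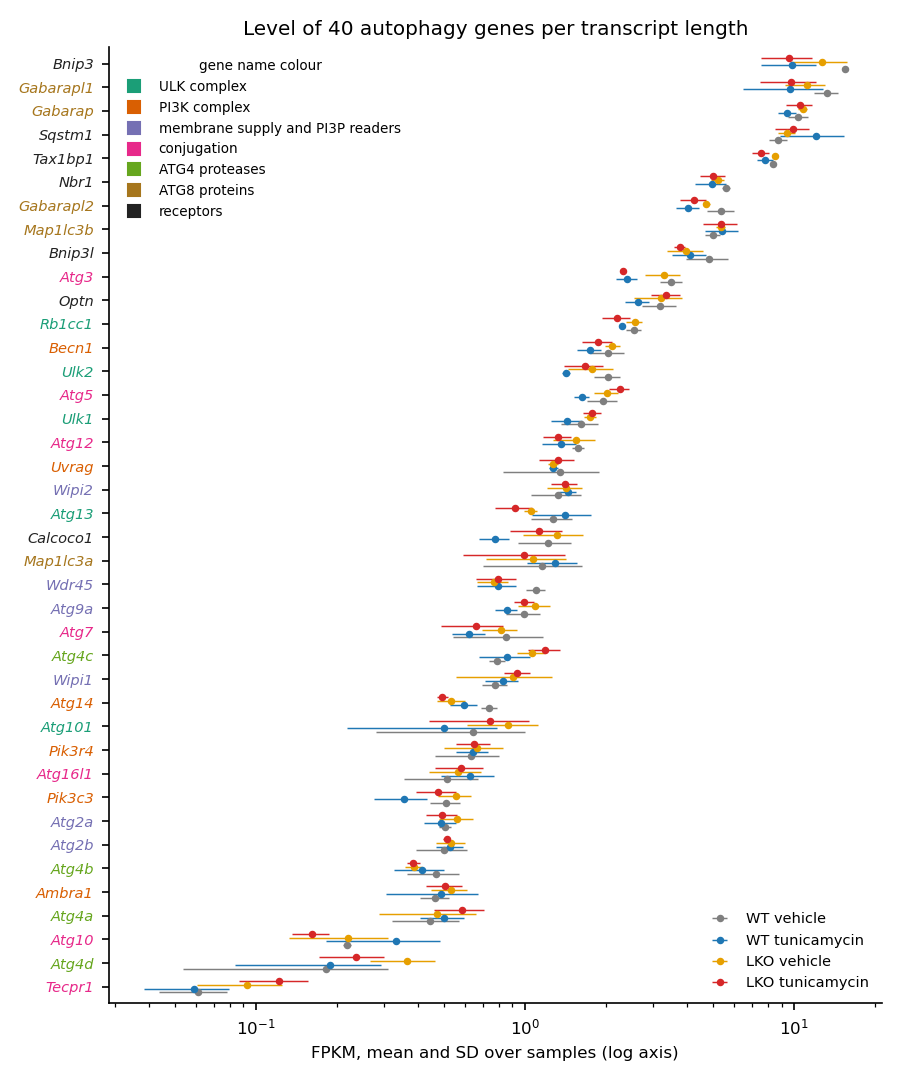
FPKM of all 40 genes (x axis, log scale; mean and SD over the 3 or 4 samples of each of the 4 groups, by colour), ordered by the WT vehicle mean, with gene names coloured by role. Levels span from 0.0609 FPKM for Tecpr1 to 15.5 FPKM for Bnip3 in WT vehicle, and the 4 groups of a gene lie close together on this scale.

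The tunicamycin differences of the 39 genes in WT and in LKO, which share no samples, had a Pearson correlation across genes of 0.41 (Spearman 0.46), and 26 of 39 had the same sign. Over all 9644 genes these were 0.49 (Spearman 0.39) and 63.8%, and the list's share was 66.7%. Genes are not independent replicates, so this is a description. Atg3 and Bnip3 were the 2 genes at an unadjusted p under 0.05 and lower in both genotypes. For Bnip3 the LKO value was -0.41 with an unadjusted p of 0.0494, and it ran from -0.60 to -0.20 when 1 sample was left out.

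**Figure D5:**
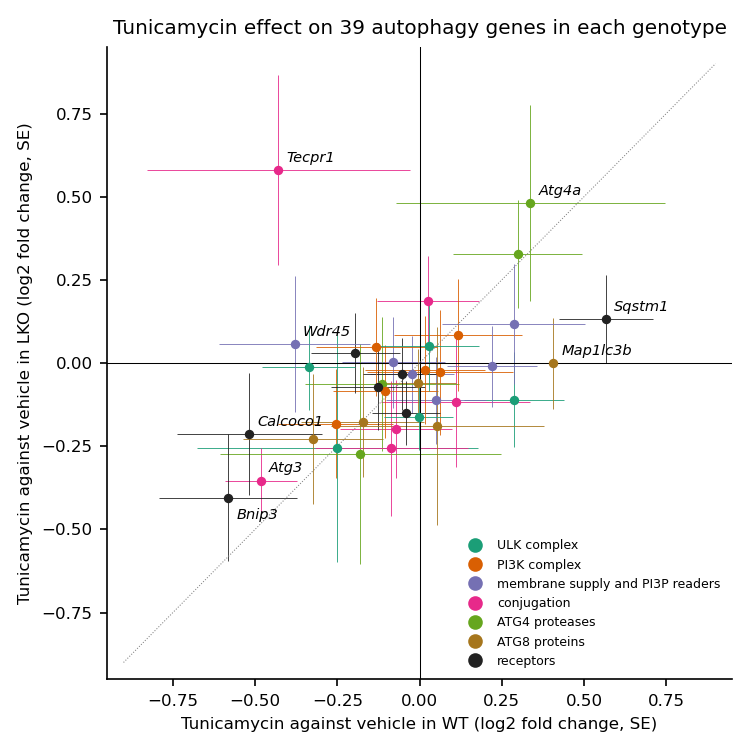
Log2 fold change of tunicamycin against vehicle in WT (x axis) and in LKO (y axis) for the 39 genes, coloured by role, with SE bars and a dotted line of equal change. Atg3 and Bnip3 lie low on both axes, while Sqstm1 (0.57 in WT, 0.13 in LKO) and Map1lc3b (0.41 and -0.00) lie to the right near 0 on the y axis.

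A list of 12 of the 40 genes, known as targets of the ER stress factors ATF4 and CHOP, had 11 tested. In the tunicamycin average 1 of the 11 was called, Atg3, and it was lower, against 4.32% of all genes called. The median over the 11 was -0.05 in WT, against 0.01 over all genes, and -0.08 in LKO, against 0.00. Sqstm1 (0.57) and Map1lc3b (0.41) were the members with an unadjusted p under 0.05 and higher in WT.

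Upstream of the machinery, 16 of 19 genes of the mTORC1, AMPK, sestrin, TFEB and FOXO control were tested, and 1 was called in the tunicamycin average (4.32% of all genes) and none in the LKO average (2.21%). Foxo3, a transcription factor known to drive autophagy genes, was at 9.22, 12.6 and 11.95 CPM in WT vehicle and 8.94, 6.0 and 7.56 CPM in WT tunicamycin. It was at 9.24, 11.2 and 13.5 CPM in LKO vehicle and 7.73, 8.72, 8.66 and 9.45 CPM in LKO tunicamycin. The ranges overlapped slightly, and the averaged difference was -0.49 ± 0.12 (SE; adjusted p = 0.0322, edgeR). It was past the threshold in 5 of 13 fits that left out 1 sample. Of 17 genes of ER-phagy and other selective receptors 16 were tested, and of 14 genes of fusion with the lysosome 13 were. None of either list was called in the tunicamycin average (4.32% of all genes) or in the LKO average (2.21%).

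In bulk liver, fewer cells of a type and less RNA per cell cannot be told apart. Of 8 hepatocyte markers 7 were well expressed, and Ass1 had 0 to 3 reads summed over each group although the authors' FPKM table lists it. Summed stellate cell and fibroblast markers (7 genes, none at 0 in all samples of a group) ranged from 63.8 to 105 CPM in WT vehicle, 89.2 to 125 in WT tunicamycin, 111 to 151 in LKO vehicle and 104 to 163 in LKO tunicamycin. All 6 tested were higher in LKO and 3 were called (Col1a1, Col3a1 and Pdgfrb), as was Spp1 of the bile duct list. Of the 7 hepatocyte markers tested, 5 were lower and 2 higher in LKO, and 1 was called, Serpina1c, which was lower. With tunicamycin, S100a8 and S100a9, neutrophil genes, were called higher, and 7 of 7 Kupffer cell markers were higher with none called. The part of these cells in the differences of Atg13, Atg14 and Atg3 was not tested.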

How the data were processed

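Liver RNA of 14 libraries was analysed. The deposited counts are STAR reads per gene, 1 file a library; the column for the gene's strand was used, which held 99.5% to 99.6% of the reads on either strand. The authors' FPKM table (scaled by gene length and library) was used for levels between genes and as an alternative. Per the submitters' processing notes, Trimmomatic, STAR and Cufflinks were used with mm10; versions are not given in the sources used here. In the FPKM table LKO vehicle 2 has Rn45s at 0.

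LKO vehicle 3 and 4 were summed. Counts were fitted with edgeR 4.0.16 in R 4.3.3 (TMM, filterByExpr by group, glmQLFit, glmQLFTest; 1 mean per group; 9 residual degrees of freedom), with p-values adjusted by Benjamini-Hochberg over 9644 genes and a threshold of 0.05. Averages weight both treatments or genotypes equally. Alternatives were other scalings, no filter, 14 libraries, a replicate block, only the groups compared, each sample left out, DESeq2 1.42.0, and limma 3.58.1 on log2(FPKM + 1) and log2(FPKM + 0.1). The fit was tested on simulated data.

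The genes and lists were chosen with earlier results of these data known. Given in full are Ulk1, Becn1, the ATG8 genes, Sqstm1, every called gene and, where fewer than 3 were called in a contrast, those with the 3 smallest p-values: 15 genes. Tax1bp1 was added after its values were seen, and the others are given by role.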

Additional observations from a re-analysis of the deposited data

Results flagged for a closer look

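Within the 4 LKO tunicamycin samples, sample 3 stood apart for 2 genes by Dixon's test on the gap to its nearest neighbour. Atg14 was at 4.076 CPM there and at 4.78 to 4.81 CPM in the other 3 samples. Becn1 was at 8.559 CPM there and at 10.5 to 10.9 CPM in the others. Of the groups of 4 samples, 18 were tested, and chance flags about 1 in 20.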

How the results depend on the processing

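Over 53 results on the 15 genes, 1130 values under alternatives kept direction and side of the threshold, 29 lost and 26 gained a call, and 53 changed sign, all of them uncalled. The cause was not tested. Replicate numbers did not pair samples: the deviations of same-numbered samples correlated at -0.118 to 0.141 (18 pairs).

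The number of genes called moved most. Under tunicamycin, LKO against WT called 83 genes, and 164 with total count scaling, 261 with no filter, 27 with only the groups compared, 137 with DESeq2, 7 with log2(FPKM + 1) and no filter, 34 with log2(FPKM + 1) without the LKO vehicle 2 column, an alternative added after seeing the data, and 0 to 183 leaving out 1 sample. In vehicle LKO against WT called 4, and 8 with total count scaling, 84 with no filter, 12 with 14 libraries, 25 with only the groups compared, 17 with DESeq2, 0 with each FPKM fit on all columns, 1 without the LKO vehicle 2 column, and 0 to 17 leaving out 1 sample. The LKO average called 213, and 514 with no filter, 43 with FPKM and no filter, 69 without the LKO vehicle 2 column, and 62 to 413 leaving out 1 sample. Tunicamycin in LKO called 3, and 153 with no filter, 5 with 14 libraries, 37 with DESeq2, 0 with FPKM at either pseudocount, 1 with FPKM and no filter, and 0 to 67 leaving out 1 sample. Tunicamycin in WT called 35, and 148 with total count scaling (33 higher and 115 lower, from 28 and 7), 289 with no filter, 56 with 14 libraries, 7 with only the groups compared, 151 with DESeq2, 3, 1 and 0 with FPKM at a pseudocount of 1, of 0.1 and with no filter, 1 without the LKO vehicle 2 column, and 0 to 615 leaving out 1 sample (0 without WT vehicle 1 or 2 or WT tunicamycin 1, 615 without WT tunicamycin 3). The tunicamycin average called 417, and 810 with total count scaling, 764 with no filter, 668 with 14 libraries, 259, 222 and 19 with those FPKM fits, 237 without the LKO vehicle 2 column, and 59 (without WT tunicamycin 1) to 1085 (without WT tunicamycin 3). The interaction called 0, and 1 without the LKO vehicle 2 column, and 0 to 2 leaving out 1 sample. Total count scaling turned the LKO split under tunicamycin from 30 higher and 53 lower to 142 and 22.

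With the replicate block, 32 genes were called for LKO under tunicamycin, 0 for LKO in vehicle and 5 for tunicamycin in LKO, 1 of the 39 genes was called in the LKO average, where Atg14 was lost (adjusted p = 0.0560, edgeR), and Map1lc3b was at -0.000444 in that average.

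Of the 39 genes, 0 were called for LKO under tunicamycin with total count scaling, only the groups compared and each FPKM fit (0 to 2 leaving out 1 sample), and in the LKO average 1 with total count scaling and 0 with each FPKM fit (1 to 3). For tunicamycin in WT 1 was called with total count scaling, 1 with no filter and 2 with DESeq2 (0 to 3). In the tunicamycin average 2 were called with total count scaling, 2 with no filter, 3 with 14 libraries, 3 with DESeq2 and 2 without the LKO vehicle 2 column (1 to 4). Where calls over all genes rose as well, these counts are no gain particular to the list. In that average calls over all genes went from 417 to 810, 764 and 668 with the first 3 of these alternatives. They fell to 237 without the LKO vehicle 2 column and to 206 without WT tunicamycin 2, with 2 of the 39 called in each. Whether those 2 fits differ for the list was not tested. For tunicamycin in WT calls over all genes went from 35 to 148 with total count scaling, 289 with no filter and 151 with DESeq2.

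Signs changed as follows. With total count scaling, Atg13, Tecpr1 and Ulk1 were at -0.0247, -0.0390 and -0.0846 in the tunicamycin average, and Becn1 and Gabarap at 0.0463 and 0.0401 in the LKO average. With log2(FPKM + 1), with or without the filter, Atg13 was at -0.00972, Ulk1 at -0.0407 and Map1lc3a at 0.0210 for tunicamycin, Becn1 at 0.0529 and Gabarap at 0.0932 for LKO, and Map1lc3b at 0.000178 for tunicamycin in LKO. With log2(FPKM + 0.1) these were -0.0313, -0.0635, 0.0385, 0.0772 and 0.101 for the first 5. Without the LKO vehicle 2 column Atg13 was at -0.0212, Ulk1 at -0.0516, Becn1 at 0.0683 and Gabarap at 0.0906. Map1lc3b in the LKO average was at -0.00343 with no filter, -0.0031 with 14 libraries and -0.00831 with DESeq2, and for tunicamycin in LKO at 0.00323 with DESeq2 size factors, 0.00723 with 14 libraries and 0.00573 with only the groups compared. Leaving out 1 sample, Becn1 in the LKO average ran from -0.0849 to 0.0542, Map1lc3b from -0.0576 to 0.0856 there and from -0.0465 to 0.0767 for tunicamycin in LKO, and in the tunicamycin average Map1lc3a from -0.216 to 0.0928, Tecpr1 from -0.0320 to 0.149 and Ulk1 from -0.0648 to 0.106.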
